A study of Mus musculus with 8 samples.

Results

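The genes of microfold cells were examined in the accessible chromatin of mouse medullary thymic epithelial cells (mTECs). Members were the 6 genes Gp2, Spib, Sox8, Tnfaip2, Ccl20 and Ccl9, and every accessible region that overlapped a gene body or the 20 kb on either side of it was taken. This gave 31 regions, or 0.0543% of the 57124 regions of the whole data set. All positions refer to the mm10 genome (GRCm38), and genes are those of GENCODE M21.

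Chromatin accessibility had been measured by ATAC-seq, in which a transposase cuts open chromatin. The cells came from wild-type BL6N6 mice of 4 to 6 weeks of age and were sorted by flow cytometry, after depletion of CD45-expressing cells, by the surface protein Tspan8 and by MHC class II. The 8 samples fall into 4 groups of 2, Tspan8neg MHCIIlow, Tspan8pos MHCIIlow, Tspan8neg MHCIIhigh and Tspan8pos MHCIIhigh. The regions are the merged peaks of the whole set and belong to no single group, so the values below describe where chromatin was called accessible in the set and not in which sorted population. The read counts could not be tied to samples and sample depth is not analysed here, so no group is compared, no test was run and no value has a replicate error.

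Microfold cells are epithelial cells of the gut that lie over lymphoid follicles and take up particles and microbes from the lumen. They form when RANK ligand engages RANK on epithelial precursors and activates NF-kB signalling, and the ETS factor Spib and the SOX factor Sox8 then act in their maturation. In the thymic medulla RANK signalling drives the maturation of mTECs, and a minor mTEC subset carries a gene programme that resembles that of microfold cells. Gp2 encodes a surface receptor for bacteria and is a marker of mature microfold cells. Tnfaip2 encodes a cytosolic protein that promotes tunnelling nanotubes. Ccl20 and Ccl9 encode chemokines, whose receptors are Ccr6 and Ccr1.

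The cell type was checked against marker genes by the same promoter rule, which asks for a region centred no more than 1000 bases upstream and 100 bases downstream of an annotated start. A promoter region was present at 7 of 8 mTEC markers (Aire, Epcam, Krt5, Krt14, Cd80, H2-Ab1 and Tnfrsf11a), beside 48.6% of all protein-coding genes. Epcam and the MHC class II gene H2-Ab1 encode proteins that were used in the sort. At Fezf2 a region overlapped the promoter window, with its centre 114 bases from the start. A promoter region was present at 0 of 6 thymocyte markers (Cd3e, Cd4, Cd8a, Ptcra, Rag1 and Lck). Of these 6, 5 had a region in the gene body plus 20 kb, beside 81.5% of all protein-coding genes. Of the B cell and dendritic cell genes Cd79a, Itgax and Flt3, none had a promoter region by the centre rule, but a region overlapped the promoter window of Flt3 and was centred 120 bases from a start, and the nearest region to Cd79a was centred 239 bases away. Spib also acts in B cells and plasmacytoid dendritic cells, and the part of such cells in its regions was not tested.

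Of the 6 microfold cell genes, 4 had a promoter region, namely Spib, Sox8, Tnfaip2 and Ccl20. Among all 21938 protein-coding genes this share was 48.6%. A region anywhere in the gene body plus 20 kb was found at 5 of the 6 genes, with 81.5% among all protein-coding genes. Gp2 had none. Ccl9 had regions on both sides of the gene but none at its promoter. When any overlap of the promoter window was counted, the same 4 genes were found, and the share among all protein-coding genes was 60.7%. With 6 genes, none of these counts is read as a difference from other genes.

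The sequences of the 4 promoter regions are shown because they differ in composition. All 4 regions held the NF-kB consensus, and that of Ccl20 also held an ETS match. Each was read 5′ to 3′ on the strand of its gene, and bases in annotated exons of any gene were left out. The Sox8 region overlapped an exon of 2810468N07Rik, and 160 of its 552 bases are printed. These lie at the end of the region far from the Sox8 start, unlike the other 3 stretches, which reach the start. Capitals mark matches to the NF-kB consensus, and in Ccl20 also to the ETS motif GGAAGT. The NF-kB match of Tnfaip2 lay in the exonic bases left out, so no capitals are seen there. The stretches are chr7:44532072-44532261 on the minus strand (Spib), chr1:83116613-83116765 on the plus strand (Ccl20), chr12:111442328-111442468 on the plus strand (Tnfaip2) and chr17:25571102-25571261 on the minus strand (Sox8).
Spib: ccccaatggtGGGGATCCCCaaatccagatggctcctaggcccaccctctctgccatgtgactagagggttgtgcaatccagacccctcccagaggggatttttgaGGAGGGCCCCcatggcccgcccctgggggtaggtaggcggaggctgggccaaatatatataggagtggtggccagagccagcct
Ccl20: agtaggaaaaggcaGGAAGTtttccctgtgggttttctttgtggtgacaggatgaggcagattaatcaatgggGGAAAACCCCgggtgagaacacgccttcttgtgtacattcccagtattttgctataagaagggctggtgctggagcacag
Tnfaip2: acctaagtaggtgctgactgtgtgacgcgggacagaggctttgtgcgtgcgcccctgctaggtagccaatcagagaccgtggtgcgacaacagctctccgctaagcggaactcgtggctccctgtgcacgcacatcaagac
Sox8: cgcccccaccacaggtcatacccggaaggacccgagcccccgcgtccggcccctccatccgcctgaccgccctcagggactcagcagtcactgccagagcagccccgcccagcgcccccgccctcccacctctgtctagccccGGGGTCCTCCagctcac

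The genes without a promoter region are shown for comparison by the 250 bases directly upstream of the gene. These are chr7:119459286-119459535 (Gp2) and chr11:83578637-83578886 (Ccl9), both on the minus strand. Capitals mark an NF-kB match and an ETS match upstream of Ccl9, and no motif of the searched set was found in the 250 bases upstream of Gp2.
Gp2: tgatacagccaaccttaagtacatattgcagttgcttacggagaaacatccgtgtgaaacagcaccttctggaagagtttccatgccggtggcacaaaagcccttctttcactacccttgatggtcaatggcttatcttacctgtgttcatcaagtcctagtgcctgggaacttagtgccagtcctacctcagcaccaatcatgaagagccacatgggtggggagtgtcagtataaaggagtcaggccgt
Ccl9: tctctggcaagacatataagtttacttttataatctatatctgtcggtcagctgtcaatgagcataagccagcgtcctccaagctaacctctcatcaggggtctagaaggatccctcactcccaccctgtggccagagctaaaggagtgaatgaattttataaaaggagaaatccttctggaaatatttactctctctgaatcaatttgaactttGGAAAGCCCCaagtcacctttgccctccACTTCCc

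**Figure D1:**
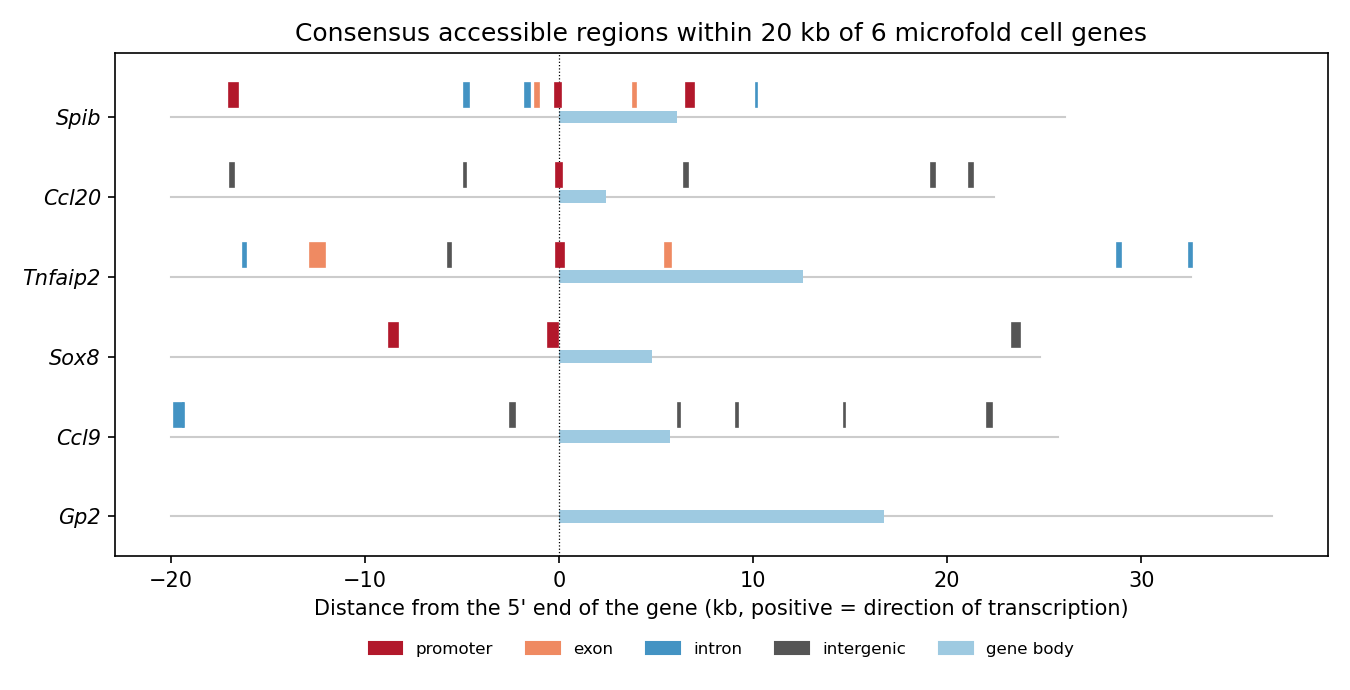
Position of each accessible region relative to the 5′ end of the gene (x axis, kb, positive in the direction of transcription) for the 6 genes (rows), coloured by the annotation of the region centre, with gene bodies as light blue bars and the searched window as a grey line. Regions lie at the 5′ end of Spib, Ccl20 and Tnfaip2 and directly upstream of Sox8, Ccl9 has 7 regions away from its 5′ end, and Gp2 has 0.

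Among the transcription factors, Spib (ENSMUSG00000008193.13, chr7:44525993-44532071, minus strand) had 8 regions in its window, the most of the 6 genes. Its promoter region, chr7:44531988-44532261, was 274 bases wide, was centred 54 bases upstream of the start and covered the start and part of the 5′ untranslated exon. A further region of 170 bases lay over an exon of Spib, 3878 bases downstream of the start. The other 6 regions lay in or beside neighbouring genes. Regions of 194, 232 and 276 bases lay 1146, 1612 and 4764 bases upstream of Spib within the body of Pold1, which encodes the catalytic subunit of DNA polymerase delta. The promoter of Pold1 itself held a region of 452 bases. Downstream, a region of 407 bases lay at the promoter of Mybpc2, a myosin-binding protein gene, and the narrowest region of the set of 31, with 73 bases, lay in an intron of Mybpc2. Since the windows of neighbouring genes overlap, all 8 regions also fell in the Pold1 window and 7 in the Mybpc2 window, and they cannot be assigned to Spib alone.

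The region 4764 bases upstream of Spib is shown because it held both an AP-1 and an NF-kB match, as did only the 773-base region upstream of Tnfaip2. Both matches are given in capitals (chr7:44536698-44536973, minus strand, intron of Pold1).
Spib upstream region: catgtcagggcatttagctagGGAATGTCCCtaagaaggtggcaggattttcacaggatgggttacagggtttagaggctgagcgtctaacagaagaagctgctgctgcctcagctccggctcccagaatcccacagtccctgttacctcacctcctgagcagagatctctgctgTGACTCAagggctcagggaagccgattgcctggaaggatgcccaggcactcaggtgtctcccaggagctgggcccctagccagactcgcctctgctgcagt

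Sox8 (ENSMUSG00000024176.10, chr17:25565892-25570686, minus strand) had 3 regions. The promoter region, chr17:25570710-25571261, was 552 bases wide and was the widest of the 4 member promoter regions. It was centred 300 bases upstream and did not cover the Sox8 start, and it overlapped an exon of the neighbouring transcript 2810468N07Rik. A region of 458 bases lay 8514 bases upstream at the promoter of Lmf1, which encodes a lipase maturation factor. The remaining region, of 389 bases, was intergenic and lay 23542 bases downstream of the start. Sox8 was thus the gene with few but wide regions, none of them under 389 bases.

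Tnfaip2 (ENSMUSG00000021281.15, chr12:111442469-111455018, plus strand) had 7 regions. The promoter region, chr12:111442328-111442740, was 413 bases wide, covered the start and was centred 65 bases downstream of it. A region of 302 bases lay over an exon of Tnfaip2, 5410 bases downstream. The widest region of the 31, with 773 bases, lay 12443 bases upstream within Exoc3l4 and over an exon of Gm10425. A region of 133 bases in an intron of Exoc3l4 and an intergenic region of 151 bases made up the upstream set. Both downstream regions, of 192 and 152 bases, lay in introns of Gm40578.

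Of the chemokine genes, Ccl20 (ENSMUSG00000026166.14, chr1:83116766-83119167, plus strand) had 6 regions. Its promoter region, chr1:83116613-83116909, was 297 bases wide and centred 5 bases upstream of the start, which it covered. The other 5 regions were intergenic and none lay in another gene. They were 216 and 132 bases wide at 16854 and 4844 bases upstream, and 209, 174 and 209 bases wide at 6543, 19244 and 21202 bases downstream of the start. The promoter region was the widest of the 6. The window of Ccl20 held no other protein-coding gene.

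Ccl9 (ENSMUSG00000019122.8, chr11:83572919-83578636, minus strand) had 7 regions, of which 0 overlapped the gene body. The nearest, chr11:83580915-83581179, was 265 bases wide and centred 2411 bases upstream, between Ccl9 and its paralog Ccl6. Intergenic regions of 140, 88, 94 and 275 bases followed the gene at 6192, 9178, 14714 and 22171 bases downstream of the start. A pair of regions of 96 and 452 bases lay about 19 kb upstream in an intron of E230016K23Rik, at distances of 19330 and 19604 bases, and abutted each other with no base between them. The windows of Ccl9 and Ccl6 shared 5 of these regions, and Ccl6 had no promoter region either.

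The nearest upstream region and the pair of narrow downstream regions of Ccl9 are shown, the former because it is the accessible region closest to the Ccl9 start and the latter because they were the only ones of the 31 with the SPI-type motif GAGGAAGT, the form of the ETS motif known for Spib and PU.1. Capitals mark that motif, which is seen here as its reverse complement. The regions are chr11:83580915-83581179, chr11:83572374-83572513 and chr11:83569415-83569502, all read on the minus strand.
Ccl9 upstream region: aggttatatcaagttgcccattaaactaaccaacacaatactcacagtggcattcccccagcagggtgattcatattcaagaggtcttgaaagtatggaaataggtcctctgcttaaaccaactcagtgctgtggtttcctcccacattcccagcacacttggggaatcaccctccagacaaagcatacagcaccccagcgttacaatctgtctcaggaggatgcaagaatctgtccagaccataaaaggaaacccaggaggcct
Ccl9 downstream region, 140 bases: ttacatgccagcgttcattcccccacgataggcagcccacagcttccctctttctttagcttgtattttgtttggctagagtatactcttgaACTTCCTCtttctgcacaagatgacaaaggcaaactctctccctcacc
Ccl9 downstream region, 88 bases: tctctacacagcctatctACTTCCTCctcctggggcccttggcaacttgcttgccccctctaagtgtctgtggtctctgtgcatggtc

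Gp2 (ENSMUSG00000030954.10, chr7:119442537-119459285, minus strand) had 0 regions, and this was also the case with 50 kb on either side. The span without a region around it was 148424 bases long. Of the gaps between neighbouring regions in the genome 94.3% were shorter, with a median gap of 14740 bases. A gene without regions in its window must lie in a long gap, so this rank is no separate result. Gp2 and its paralog Umod, which encodes uromodulin, were the 2 protein-coding genes wholly inside that span. The nearest region on the upstream side, chr7:119513037-119513301, was 265 bases wide, lay 53884 bases from the nearest Gp2 start and within Pdilt and Gm26967. On the other side, chr7:119364210-119364612 was 403 bases wide and lay 94859 bases away. Of all protein-coding genes, 18.5% had no region in the window, and of the 4113 genes with a window of similar length 14.0% had none. Repeats, in which uniquely mapped reads are fewer, made up 30.05% of the Gp2 window and 30.3% of the Ccl9 window, against 16.5% to 21.9% in the windows of the other 4 genes, and their part in the result was not tested. A missing region says only that no peak was called there in the merged set, not that the chromatin was closed in every cell.

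To put the number of regions in relation to window length, regions per 10 kb of window were computed. The density was 1.74 for Spib, 1.53 for Ccl9, 1.42 for Ccl20, 1.33 for Tnfaip2, 0.67 for Sox8 and 0 for Gp2, with a median of 0.386 over all protein-coding genes. Of all protein-coding genes, 99.1% had a lower density than Spib, 97.9% than Ccl9, 97.1% than Ccl20, 96.0% than Tnfaip2 and 73.5% than Sox8. Apart from Ccl20, these windows overlapped those of neighbouring genes, so a rank does not belong to the member alone. Exoc3l4 shared 5 of the 7 regions at Tnfaip2, and Lmf1 shared 2 of the 3 at Sox8. At Spib, Nr1h2 shared 5 of the 8, beside Pold1 and Mybpc2. These ranks also depended on the window and on width. With 10 kb on either side, Tnfaip2 had 3 regions, Ccl20 3 and Ccl9 4, and 83.4% of genes had a lower density than Tnfaip2. With regions of at least 200 bases, Tnfaip2, Ccl9 and Sox8 had 3 regions each, and 84.4%, 88.7% and 89.3% of genes had a lower density. Spib ranked above 96.4% to 99.7% of genes in all 4 alternatives of window and width, and Gp2 had 0 regions in each. By covered bases, regions made up 4.51% of the Spib window, 3.92% of the Tnfaip2 window, 3.12% of the Sox8 window, 3.08% of the Ccl9 window and 2.92% of the Ccl20 window, with a median of 1.35% over all genes. By this measure Sox8 was level with Ccl9 and Ccl20. In plain number, the median over all genes was 3 regions (quartiles 1 and 5), and among genes with windows of similar length it was 2 for Spib, Sox8 and Ccl9, 1 for Ccl20 and 3 for Tnfaip2 and Gp2.

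**Figure D2:**
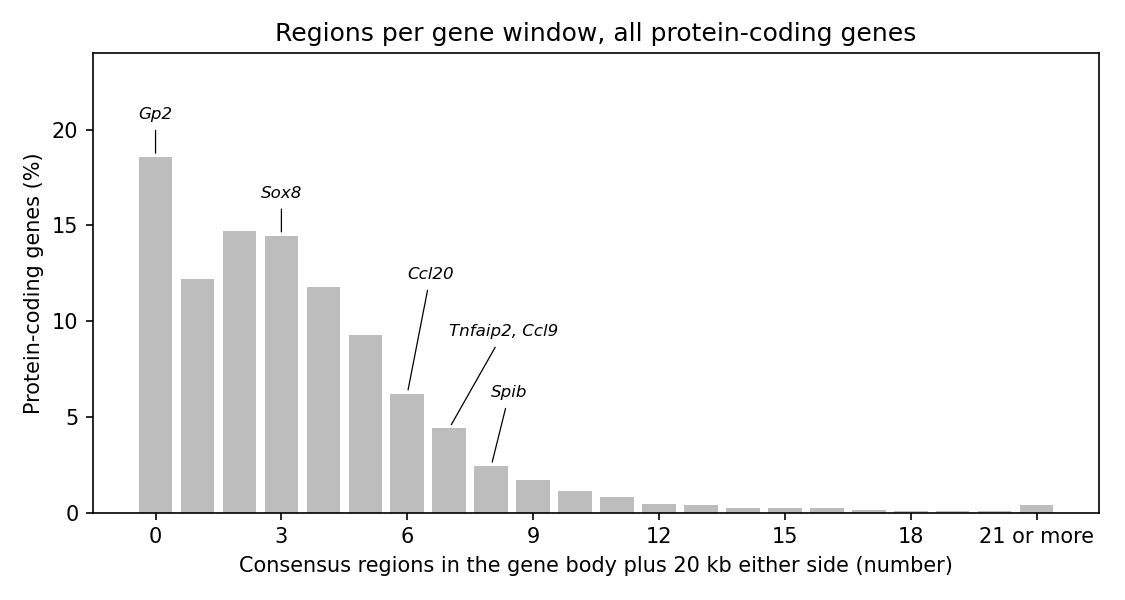
Share of all protein-coding genes (y axis, %) by the number of accessible regions in the gene body plus 20 kb on either side (x axis), with the members named above their bar. Gp2 falls in the bar of genes with 0 regions and Sox8 at the median of 3, and Ccl20, Tnfaip2, Ccl9 and Spib lie at 6 to 8 regions.

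The 31 regions had a median width of 216 bases (73 to 773), compared with 212 bases in the whole set. Regions under 200 bases numbered 13 (41.9%, against 47.4% of all regions). By the position of their centre, 7 were promoter regions (22.6%, against 21.9% of all regions), 4 lay in exons (12.9% against 8.36%), 8 in introns (25.8% against 40.2%) and 12 were intergenic (38.7% against 29.6%). Of the 7 promoter regions, 4 belonged to the members and 3 to Pold1, Mybpc2 and Lmf1. The median width of the 7 promoter regions was 413 bases, against 482 bases for promoter regions of the whole set, and that of the 12 intergenic regions was 192 bases against 168. The promoter regions of Spib and Ccl20, with 274 and 297 bases, were narrower than those of Tnfaip2 and Sox8. Of all promoter regions 24.6% were narrower than that of Spib, 26.9% than that of Ccl20, 40.8% than that of Tnfaip2 and 58.7% than that of Sox8.

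**Figure D3:**
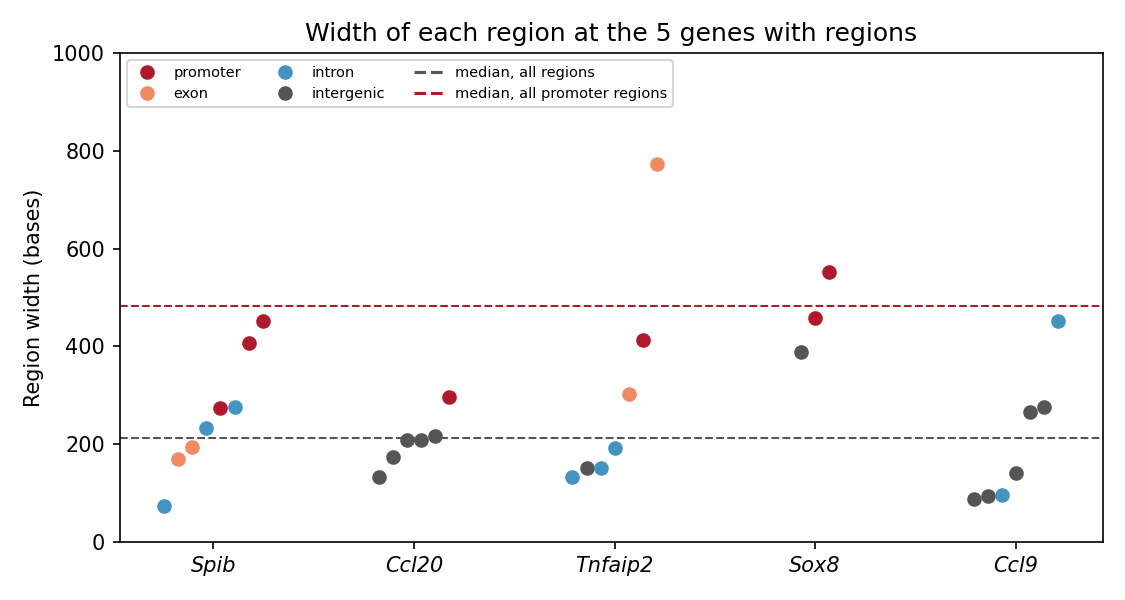
Width of each region (y axis, bases) at the 5 genes with regions, 1 point per region coloured by annotation, with dashed lines at the median of all regions (212 bases, grey) and of all promoter regions (482 bases, red). The regions of Sox8 lie at 389 bases and above, 3 of the 6 regions of Ccl20 lie within a few bases of the overall median, and 4 of the 7 regions of Ccl9 lie below it.

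Base composition differed between the member promoters. The CpG ratio is the observed number of CpG dinucleotides over the number that the C and G content would give. It was computed for the promoter window at the 5′ end of each gene (1000 bases before that end and 100 after it). A promoter region, in contrast, was counted at any annotated start of the gene. The ratio had a median of 0.393 over all protein-coding genes. It was 0.61 for Sox8 and 0.361 for Tnfaip2, and it was low for Spib (0.197), Gp2 (0.18), Ccl20 (0.153) and Ccl9 (0.153). Of the 8732 genes with a ratio under 0.3, 18.4% had a promoter region, compared with 59.3% of the 7426 genes from 0.3 to 0.6 and 80.5% of the 5780 genes at 0.6 or more. Spib and Ccl20 therefore had a promoter region in the class where most genes lacked it, Gp2 and Ccl9 belonged to the majority of that class, and Tnfaip2 and Sox8 to the majority of theirs. Spib combined a low CpG ratio with a GC content of 59.4%, whereas GC was 46.2% for Ccl20, 43.9% for Ccl9 and 47.2% for Gp2. Within the 31 regions the GC content ranged from 41.2% to 66.7% with a median of 55.9%, and the median of all regions was 53.9%.

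**Figure D4:**
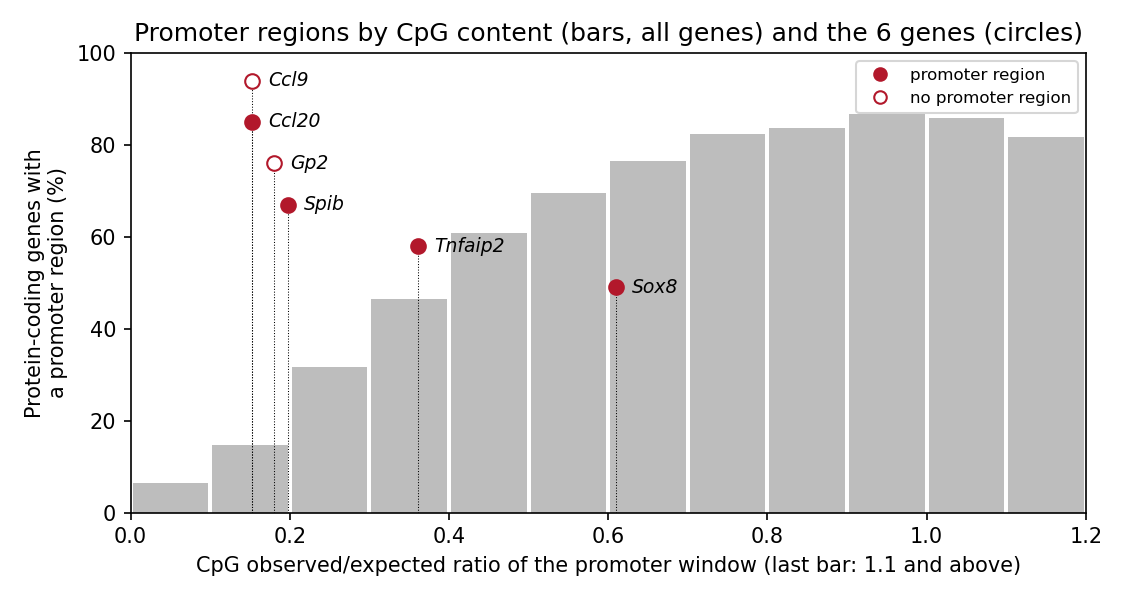
Protein-coding genes that had a promoter region (y axis, % of genes in each bar) by the CpG ratio of the promoter window (x axis, bars), with the 6 genes as circles placed at their own ratio, filled where a promoter region is present, at heights that carry no value. Spib and Ccl20 are filled at ratios of 0.197 and 0.153, where few genes have a promoter region, and Ccl9 and Gp2 are open at similar ratios.

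The regions were searched on both strands for motifs of factor families known in microfold cells and mTECs. A match describes letters and not binding. The NF-kB consensus was found in 9 of the 31 regions (29.0%). Regions of similar width in the whole set held it in 18.6% on average, and regions of similar width and GC content in 18.0%. The 9 regions comprised 4 at Tnfaip2, 3 at Spib and 1 each at Ccl20 and Sox8, with 0 at Ccl9. In the promoter regions, matches lay 80 and 176 bases upstream of the Spib start, 76 bases upstream of the Ccl20 start and 428 bases upstream of the Sox8 start, and the match in the Tnfaip2 promoter region lay in exonic sequence that is not printed. Promoter windows of RefSeq, from 250 bases upstream to 50 downstream of a start, were available for all 6 genes. Of these windows, 4 held the NF-kB consensus (Spib, Tnfaip2, Ccl20 and Ccl9), against 8.46% of all 32851 RefSeq promoter windows. The latter were not matched for GC content, and with 6 genes the count is not read as a difference. Ccl9 held a match 30 bases upstream of its start without an accessible region there. The Tnfaip2 match lay 20 bases upstream of a RefSeq start that is downstream of the 5′ end of the gene.

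The AP-1 motif TGAGTCA was found in 6 regions (19.4%, against 20.1% of regions of similar width), of which 3 were at Ccl20 and 1 each at Spib, Tnfaip2 and Ccl9. None of the 6 was a promoter region, and none of the members' RefSeq promoter windows held the motif. The ETS motif GGAAGT was found in 5 regions (16.1% against 19.7%), all at Ccl20 and Ccl9. The SPI-type motif GAGGAAGT, which contains the ETS letters, was found in 2 (6.45% against 2.74%), the narrow Ccl9 regions printed above. The SOX motifs AACAAT and AACAAAG were found in 2 regions (6.45% against 12.4%) and the KLF motifs GGGTGTGG and GGGCGTGG in 1 (3.23% against 7.87%), the region at the Lmf1 promoter. At these numbers, each share rests on few regions. The Ccl20 region 19244 bases downstream is shown as the only one with both AP-1 and SOX matches, given in capitals (chr1:83135950-83136123, plus strand).
Ccl20 downstream region: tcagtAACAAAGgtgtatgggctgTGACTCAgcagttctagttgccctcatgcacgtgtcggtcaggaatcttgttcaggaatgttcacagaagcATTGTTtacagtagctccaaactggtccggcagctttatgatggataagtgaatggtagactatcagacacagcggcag

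A wider list of 27 genes held 9 genes for the signal and the receptors, 6 transcription factors including relatives of Spib and Sox8, 10 other genes known from microfold cells and the 2 neighbouring paralogs Umod and Ccl6. It is thus not a list of pathway genes alone. A promoter region was present at 13 of 27, beside 48.6% of all protein-coding genes, and a region in the window at 25 of 27, beside 81.5%. Of the 9 genes for the signal and the receptors, 5 had a promoter region. These were Tnfsf11 (RANK ligand), Tnfrsf11a (RANK), Tnfrsf11b (the decoy receptor osteoprotegerin), Map3k14 (the kinase NIK) and Nfkb2 (the NF-kB subunit p100/p52). Their widest promoter regions measured 77, 461, 622, 687 and 764 bases in that order, so that of RANK ligand was the narrowest. The adaptor Traf6 and the NF-kB subunit Relb had none by the centre rule, although at each a region overlapped the promoter window. The chemokine receptors Ccr6 and Ccr1, which bind Ccl20 and Ccl9, had none, and their nearest regions were centred 24590 and 11668 bases from a start. Promoter regions were thus present at Ccl20 but not at its receptor, and at neither Ccl9 nor its receptor.

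Of the 6 further transcription factors, Esrrg and Sox9 had a promoter region, of 278 and 486 bases. The ETS factors Spi1 (PU.1) and Spic, which are related to Spib, had none, and Spic had 0 regions in its window. Sox10, like Sox9 a relative of Sox8, had no promoter region, and its nearest region was centred 11834 bases from a start. Atoh8 had 11 regions in its window and none by the promoter rule, although the nearest was centred 260 bases from a start. Of the 10 other genes known from microfold cells, Anxa5, Marcksl1, Pglyrp1, Prnp, Serpinb1a and Aif1 had a promoter region, whereas Scg5, Ctsh, Clu and Cd9 had none by the centre rule. A region overlapped the promoter window of Scg5, Clu and Cd9, and the nearest region to a Ctsh start was centred 400 bases away. The widths ranged from 84 bases at Aif1, an actin-binding protein gene, to 793 bases at Marcksl1. The neighbouring paralogs Umod and Ccl6 had 0 promoter regions.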

How the data were processed

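ATAC-seq reads of 8 samples of sorted mTECs, in 4 groups of 2, were aligned by the authors to mm10 with Bowtie2. Mitochondrial, multimapping and low-quality reads were removed with SAMtools and duplicates with Picard, broad peaks were called with MACS2 and merged with bedtools. The sources used here do not say if peak calling was done for single samples or on pooled reads. The deposited data used here are the start, end and width of each merged region in bases, which are other values than counts or signal and belong to no sample. The table also holds 8 columns of read counts made with featureCounts 2.0.3 whose names match no label of a sample. They were not used in any step, so depth, levels and the planned group comparisons are not given, and the latter were not run.

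Regions were joined to GENCODE M21 (basic set) and GRCm38.p6, the assembly behind mm10. No region passed the end of a chromosome, and no neighbouring regions overlapped. In 19 of 57103 neighbouring pairs no base lay between the regions, and whether the deposited starts count from 0 or 1 is not stated, so positions may be off by 1 base. A region was called promoter, otherwise exon, intron or intergenic, by its centre. Similar width means within 10%, and similar GC within 5 percentage points, the latter added after the motif counts were known. Repeats are soft-masked bases. Promoter windows came from RefSeq (GRCm38.p6). All 6 members are named, genes of the wider list by whether they have a promoter region, and neighbouring genes where a member's region lies in them. The members and lists were chosen with earlier results of these data known. A further marker gene is not reported here. The functions were tested on simulated data. Python 3.11.15, numpy 2.4.6, pandas 2.3.3 and matplotlib 3.10.9 were used.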

Additional observations from a re-analysis of the deposited data

How the results depend on the processing

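The number of regions at the 6 genes depended on the window and on width. It was 31 with 20 kb on either side, 19 with 10 kb and 47 with 50 kb, and 18 when regions of at least 200 bases were kept. With at least 100 bases it was 27. Gp2 had 0 regions in each case. The counts per gene under these alternatives were added after the data were seen. The same 4 genes had a promoter region under all 5 alternatives tried for that count, which were any overlap of the window, a centre within 2000 bases, all GENCODE M21 transcripts, RefSeq starts and regions of at least 200 bases. With any overlap, 18 of the 27 listed genes had a promoter region, beside 60.7% of all protein-coding genes under the same rule. In the central 200 bases, the NF-kB consensus was found in 5 of the 31 regions, against 12.3% of all regions searched the same way. The SOX motifs were found in 1 of the 31, against 7.83%, and the other 4 motifs stayed within 1.5 times their counts. Fewer bases were searched there.

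No paired analysis was possible because the names of the count columns match no sample label. Columns that cannot be tied to a sample were not used at all, so the count-based alternatives (DESeq2, filters on low counts, leaving out samples, replicate block) were not run. Merged regions give no error between replicates, and they show where a peak was called but not how strong it was or in which group.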
